A study of Homo sapiens with 12 samples.

Results

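The replication-dependent histone genes were examined after transfection of a microRNA mimic into THP-1 macrophages, which derive from an established human leukaemia line of monocytic origin. The genes were taken by name: every protein-coding gene of GENCODE 29 whose symbol starts with HIST1H, HIST2H, HIST3H or HIST4H, which gave 71 of the 58735 genes in the table. One group of 6 libraries came from cells given a synthetic miR-122-5p mimic, and the other 6 came from cells given a control miRNA mimic. Both mimics were used at 30 nM for 24 h with the transfection reagent RNAimax, and both groups were then rested and stimulated with lipopolysaccharide (LPS), a bacterial cell wall component, for 4 h. No group without LPS was analysed here, so every value below is from stimulated cells. The labels do not say whether the 6 libraries of a group came from separate cultures, so the p-values describe how these libraries vary, and that variation may be technical.

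Replication-dependent histone genes encode the core histones H2A, H2B, H3 and H4, which form the nucleosome, and the linker histone H1, which binds the DNA between nucleosomes. They lie in clusters, have no introns in their classical form, and are transcribed mainly in S phase, when new DNA has to be packaged. Their classical mRNAs are the only known metazoan mRNAs that end in a conserved stem-loop in place of a poly(A) tail, and the stem-loop binding protein SLBP, the U7 snRNP and the CPSF2-CPSF3 nuclease complex form that end. Some of these genes also give longer, polyadenylated mRNAs, which are known from cells that have stopped dividing or are differentiating.

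The stem-loop is shown for 6 genes because it separates the classical end from the longer one. It was searched on the gene strand of the annotated transcripts as a motif of 16 bases, 11 of them fixed and 5 free. Capitals mark the stem-loop and lower case marks 5 flanking bases on each side, from the GENCODE 29 transcripts (GRCh38).
HIST1H2AC: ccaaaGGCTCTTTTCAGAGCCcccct
HIST2H2BE: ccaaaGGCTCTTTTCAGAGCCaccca
HIST1H2BC: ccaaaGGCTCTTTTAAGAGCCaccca
HIST3H2A: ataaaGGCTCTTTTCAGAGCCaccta
HIST1H4H: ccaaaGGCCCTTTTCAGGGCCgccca
HIST1H4I: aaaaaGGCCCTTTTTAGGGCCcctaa
The sites lie at chr6:26124664-26124689 (plus strand) for HIST1H2AC, chr1:149886183-149886208 (minus strand) for HIST2H2BE and chr6:26123467-26123492 (minus strand) for HIST1H2BC. Those of the other three lie at chr1:228457364-228457389 (minus strand) for HIST3H2A, chr6:26285126-26285151 (minus strand) for HIST1H4H and chr6:27139649-27139674 (plus strand) for HIST1H4I. HIST1H2AC, HIST2H2BE and HIST3H2A carry the same 16 bases, which 17 of the histone genes share. Both H4 genes printed here have another stem. The motif was found in 32 of the 71 histone genes (45.1%) and in 19 of 19880 other protein-coding genes (0.0956%), among them the variant histone gene H2AFX. Of the 39 histone genes without it, 35 are annotated only as far as the stop codon, so no sequence past it was searched. The annotation used for the counting is not given in the sources used here. If it ended at the same places, reads past the stop codon of these genes were not counted.

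An annotated transcript ran more than 100 bases past the stem-loop in 23 genes, called extended here, and ended within 100 bases of it in 9. This distance was measured only in coding transcripts that hold the motif, so spliced transcripts without it did not enter the grouping. HIST1H2BD, in the group of 9, also has a spliced coding transcript, and its longest one runs 384 bases past the stop codon. HIST1H2BJ, grouped as without the motif, has one that runs 569 bases past the stop codon. HIST2H2BE has an annotated end 1729 bases past its stem-loop and HIST1H2AC one 1114 bases past it. The polyadenylation signal AATAAA or ATTAAA was present in the last 50 bases of 22 of the 71 histone genes (31%), against 14490 of 19588 other protein-coding genes (74%). Of the 35 histone genes annotated to the stop codon only, 0 had the signal, and their last 50 annotated bases are coding sequence. The lower share among histone genes therefore also reflects where their annotation stops. Among the 24 histone genes with a mean of at least 10 counts over the 12 libraries, 16 were extended. Another 4 had the short end and 4 had no stem-loop in the annotation, and 16 of the 24 had the polyadenylation signal. This cut is on counts not scaled by length, and extended genes mostly have longer annotated exons. For example, HIST1H2BN, which is extended, passed at 54.4 counts over 5477 exon bases. HIST1H4K, annotated to the stop codon only, missed at 6.4 counts over 312 bases. How RNA was selected before library preparation (poly(A) selection or removal of ribosomal RNA) is not given in the sources used here, and its part in these levels was not tested.

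**Figure D1:**
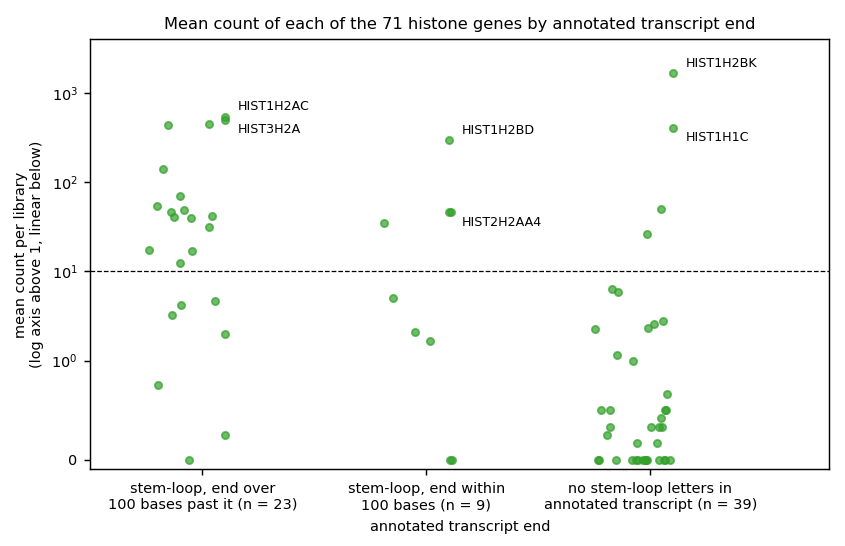
Mean count per library (y axis, logarithmic above 1 and linear below) of each of the 71 histone genes, grouped by annotated transcript end (x axis), with each point 1 gene and the dashed line at 10 counts. Most genes above the line are extended (16 of 24), while HIST1H2BK, the highest, has no stem-loop in its annotated transcript. Counts are not scaled by exon length, which is mostly longer in extended genes. Where only some transcripts of a gene hold the stem-loop, those with it set the group.

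Upstream sequence is shown for a gene at each of 2 places where neighbouring histone genes are transcribed away from each other. The 250 bases before the RefSeq start (GRCh38.p14) are at chr1:149886668-149886917 (plus strand) for HIST2H2AC, the region it shares with HIST2H2BE, and at chr1:228457874-228458123 (minus strand) for HIST3H2A. Capitals mark CCAAT or its reverse complement ATTGG, and the octamer ATTTGCAT or its reverse complement ATGCAAAT.
HIST2H2AC: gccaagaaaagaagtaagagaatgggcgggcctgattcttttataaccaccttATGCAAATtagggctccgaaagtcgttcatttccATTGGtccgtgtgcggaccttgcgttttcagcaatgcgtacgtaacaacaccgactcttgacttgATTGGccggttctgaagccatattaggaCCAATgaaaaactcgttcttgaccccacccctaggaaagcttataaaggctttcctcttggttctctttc
HIST3H2A: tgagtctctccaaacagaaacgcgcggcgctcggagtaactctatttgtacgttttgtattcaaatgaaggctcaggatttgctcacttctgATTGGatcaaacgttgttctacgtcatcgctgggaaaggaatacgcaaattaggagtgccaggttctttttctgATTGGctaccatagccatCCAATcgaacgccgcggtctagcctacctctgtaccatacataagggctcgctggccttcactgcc
HIST2H2AC has 3 CCAAT boxes and 1 octamer in this window, and HIST3H2A has 3 CCAAT boxes and 0 octamers. The octamer is the element bound by POU-domain factors such as OCT1 and is known from H2B promoters, and CCAAT is bound by the factor NF-Y. RefSeq windows matched 61 of the 71 histone genes. CCAAT was found in 51 of these 61 (83.6%) against 33% of 27305 promoters of the same length, and the octamer in 26 (42.6%) against 1.66%. Every matched H1, H2A, H2B and H3 promoter had CCAAT. Only 3 of 13 H4 promoters had it (23.1%), below the share of all promoters. The octamer was present in 11 of 14 H2A and 14 of 18 H2B promoters, 1 of 10 H3 promoters, and 0 of 6 H1 and 0 of 13 H4 promoters. Windows of neighbouring H2A and H2B genes can overlap, as for HIST2H2AC and HIST2H2BE, so the same octamer can count in both classes. HIST1H3D, the H3 gene with the octamer, has the same window as HIST1H2AD. TATAAA, searched on both strands, was found in 40 of 61 (65.6%) against 11.1% of all promoters. These matches describe letters in a window and are not evidence of binding.

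Libraries held 29473750 to 39468157 counts. Most histone genes were scarce: 54 of the 71 had any counts, 17 had 0 in all 12 libraries, and 24 had a mean of at least 10. A count of 0 allows up to 3 counts in a library, or 0.102 CPM (each library's counts scaled to a common total) in the shallowest one, for counting error only. The 24 genes with a mean of at least 10 counts held 99% of the summed CPM of the family and the other 47 held 1.04%. HIST1H4C, an H4 gene, had 2 counts over the 6 miR-122-5p libraries and 10 over the controls. HIST1H1E, the second H1 gene by level, had 19 and 14, and HIST2H3D, the second H3 gene, had 37 and 34. Macrophage markers were present, with CSF1R at 418 to 635 CPM and ITGAM at 355 to 470 CPM over the 12 libraries. CD68, also a macrophage marker, was listed at only 0.0336 to 0.502 CPM and MRC1 at 0 to 0.437 CPM. The T cell markers CD3E and CD3D and the epithelial marker EPCAM were at 0 in every library. PECAM1, an endothelial marker that monocytes also express, was at 232 to 276 CPM.

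The comparison of the miR-122-5p mimic with the control mimic used edgeR's quasi-likelihood test on all genes, with Benjamini-Hochberg adjustment over the 15471 genes that passed the filter on low counts; a gene was called at an adjusted p under 0.05. Of the 71 histone genes, 23 passed that filter, 4 were called higher with miR-122-5p, 8 lower and 11 neither. The share called (52.2%) stood near the background of 50.5% over all tested genes, of which 24.3% were called higher and 26.2% lower. The groups did not overlap for 5 of the 23, against 29.5% of all tested genes. The median log2 fold change of the 23 was -0.10, beside 0.0071 for all tested genes. The members went both ways, and their share of calls was close to that of genes at large. In bulk RNA, fewer cells making a transcript and less transcript per cell cannot be told apart.

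**Figure D2:**
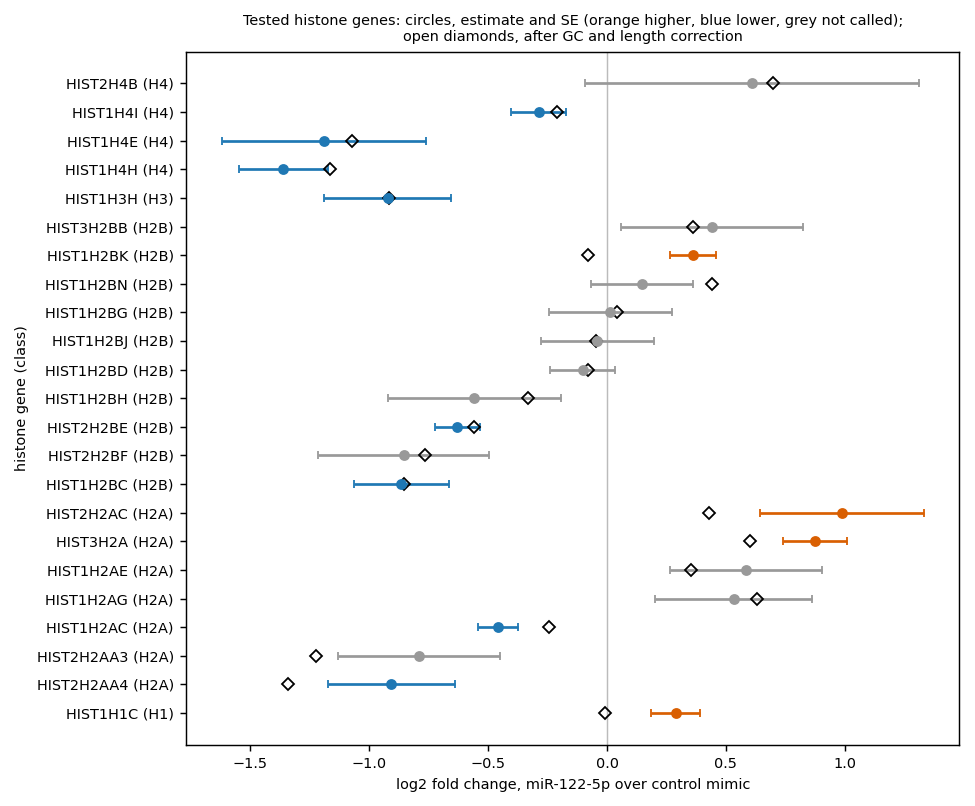
Log2 fold change of miR-122-5p over control mimic (x axis) for the 23 tested histone genes (y axis, with class). Circles and bars are the edgeR estimate and its standard error, and open diamonds are the estimates after correction for transcript GC content and length. The 4 called higher are HIST2H2AC, HIST3H2A, HIST1H2BK and HIST1H1C, and all 4 estimates are smaller after the correction, those of HIST1H2BK and HIST1H1C falling just below 0.

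Transcript GC content moved with the direction of the calls. Of the 15 tested histone genes with a transcript GC content under 50%, 0 were called higher and 7 lower by edgeR. Of the 8 at or above 50%, 4 were called higher and 1 lower. The same split ran through the whole table: of 4682 tested genes at 55% GC or more, 2155 were called higher and 465 lower, and of 5974 at 40 to 50%, 817 were called higher and 1965 lower. Each library's slope of log2 level on GC content, per 10 percentage points, was 0.0336 to 0.229 in the miR-122-5p libraries and -0.318 to 0.0119 in the controls, so the groups did not overlap in it. Called histone genes are therefore given also with their values after a correction of every library for GC content and length. For genes of the related lists below, corrected values are given only for some. After that correction 1 histone gene was called higher and 8 lower, and with the slope as a covariate 0 and 3. Those 3 were HIST1H2AC, HIST2H2BE and HIST2H2AA4 (edgeR adjusted p = 0.0153, 0.0187 and 0.0174). Some of the calls lost with the covariate kept folds of similar size, such as HIST1H2BC at -0.92 and HIST1H3H at -0.75 (edgeR adjusted p = 0.0924 and 0.359), so a lost call there does not show that the difference is gone. The slope and the treatment cannot be told apart in this design.

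H2A genes encode the core histone that pairs with H2B. Of 17 H2A genes, 7 were tested, 2 were called higher and 2 lower. HIST3H2A (chr1:228456979-228457873, minus strand) was measured at 14.0, 19.6 and 22.7 CPM with miR-122-5p (lowest, median and highest library) and at 8.32, 10.3 and 13.9 CPM in controls. Every miR-122-5p library was above every control. The means were 19.3 ± 3.63 and 10.5 ± 2.11 CPM (SD, n = 6 each), a log2 fold change of 0.87 ± 0.13 (SE; edgeR adjusted p = 1.42e-05). Corrected for GC content and length it was 0.60 (edgeR, p adjusted to 0.000262), the only called increase of the family that held there, and with the GC slope as a covariate it was 0.56 but missed the threshold (edgeR adjusted p = 0.111).

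HIST1H2AC (chr6:26124145-26139116, plus strand) went the other way. It was at 12.9, 13.2 and 14.8 CPM with miR-122-5p and at 16.7, 18.5 and 21.1 CPM in controls. The groups did not overlap, and the control range was the wider. The log2 fold change was -0.46 ± 0.08 (SE; edgeR adjusted p = 9.60e-05), and after the GC and length correction it was -0.24 (edgeR adjusted p = 0.0154). HIST2H2AC (chr1:149886975-149887364, plus strand), a gene of the smaller cluster on chromosome 1, was near the limit of measurement at 0.591, 0.828 and 1.75 CPM with miR-122-5p and 0.266, 0.530 and 0.699 CPM in controls. Its groups overlapped. The log2 fold change of HIST2H2AC was 0.99 ± 0.34 (SE; edgeR adjusted p = 0.0207) but 0.43 after the correction (edgeR adjusted p = 0.316). It also missed the threshold without miR-122-5p library 1 (0.78, edgeR adjusted p = 0.0832) or library 2 (0.88, edgeR adjusted p = 0.0580), the highest of their group.

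HIST2H2AA4 and HIST2H2AA3 are near-identical copies whose reads could be split between them by the counting, so each value alone is uncertain. HIST2H2AA4 had 0.952 ± 0.355 CPM with miR-122-5p and 1.78 ± 0.461 CPM in controls (SD, n = 6 each), a log2 fold change of -0.91 ± 0.27 (SE; edgeR adjusted p = 0.00716). HIST2H2AA3 had a log2 fold change of -0.79 ± 0.34 (SE; edgeR adjusted p = 0.0582), and passed without control library 4 (-0.92, edgeR adjusted p = 0.0314) or miR-122-5p library 2 (-1.10, edgeR adjusted p = 0.00976). Corrected for GC content and length, HIST2H2AA4 was at -1.34 and HIST2H2AA3 at -1.22, both called. With the counts of both copies summed before the fit, the pair had a log2 fold change of -0.85 (edgeR adjusted p = 0.00821). HIST1H2AE and HIST1H2AG were not called, at 0.59 ± 0.32 and 0.53 ± 0.33.

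H2B genes made up 53.5% of the summed CPM of the family. Of 18, 10 were tested, 1 was called higher and 2 lower. HIST1H2BK (chr6:27146418-27146798, minus strand) was the most abundant histone gene per length, at 129 CPM per kilobase of exon, ahead of HIST1H1C at 18.7, HIST3H2A at 16.6 and HIST1H4I at 10.01. Its levels were 51.4, 55.2 and 59.0 CPM with miR-122-5p and 30.9, 43.7 and 54.6 CPM in controls. The miR-122-5p libraries lay close together, the controls were spread widely, and the highest control (library 2) lay within the miR-122-5p range. The log2 fold change was 0.36 ± 0.10 (SE; edgeR adjusted p = 0.00357). Corrected for GC content and length it was -0.08 (edgeR adjusted p = 0.365), so neither call nor direction held. Of its 100-base windows, 28.4% are shared with H2BFS.

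HIST2H2BE (chr1:149884459-149886652, minus strand), the extended gene with the longest tail past the stem-loop of those called, was lower in every miR-122-5p library than in any control. It was at 8.84, 10.2 and 11.97 CPM with miR-122-5p and at 14.6, 15.7 and 17.7 CPM in controls. The log2 fold change was -0.63 ± 0.09 (SE; edgeR adjusted p = 1.04e-05), and -0.56 after the correction (edgeR adjusted p = 2.42e-05). HIST1H2BC (chr6:26114873-26123926, minus strand), the neighbour of HIST1H2AC, was at 1.195, 1.44 and 1.81 CPM with miR-122-5p and 2.07, 2.52 and 3.69 CPM in controls. Here too the groups did not overlap. Its log2 fold change was -0.86 ± 0.20 (SE; edgeR adjusted p = 0.00109), and -0.86 after the correction (edgeR adjusted p = 0.00101).

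The 7 other tested H2B genes were not called. HIST1H2BD, at 8.31 ± 0.692 and 8.91 ± 2.20 CPM (SD, n = 6 each), had a log2 fold change of -0.10 ± 0.14 (SE). HIST1H2BN had 0.15 ± 0.21, HIST1H2BJ -0.04 ± 0.24 and HIST1H2BG 0.01 ± 0.26. HIST3H2BB, the H2B gene beside HIST3H2A, had 0.44 ± 0.38, and its control library 6 (2.70 CPM) stood above all other libraries of both groups; without that library it was at 1.02 (edgeR adjusted p = 0.0116). HIST2H2BF had -0.86 ± 0.36 (edgeR adjusted p = 0.0517), and passed the threshold without control library 1 (-1.04, edgeR adjusted p = 0.00782), control library 6 (-0.91, edgeR adjusted p = 0.0493) or miR-122-5p library 3 (-1.12, edgeR adjusted p = 0.0162). It shares 5.54% of its exon bases with FCGR1A on the opposite strand, with the strand setting of the counting not given in the sources used here. HIST1H2BH had -0.56 ± 0.36.

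Of 15 H4 genes, 4 were tested, 0 were called higher and 3 lower. HIST1H4H (chr6:26277609-26285638, minus strand) had the largest decrease of the tested family without a GC correction; with either GC adjustment HIST2H2AA4 and HIST2H2AA3 were lower. It was at 1.89, 2.25 and 3.01 CPM with miR-122-5p and at 3.86, 5.90 and 8.08 CPM in controls, with no overlap. The log2 fold change was -1.36 ± 0.19 (SE; edgeR adjusted p = 2.91e-06), and -1.17 after the GC and length correction (edgeR adjusted p = 6.50e-06). With the GC slope as a covariate HIST1H4H was at -0.54 and no longer called (edgeR adjusted p = 0.220). HIST1H4E (chr6:26204552-26206038, plus strand) was rare, at 0.296 ± 0.193 and 0.677 ± 0.194 CPM (SD, n = 6 each), with a log2 fold change of -1.19 ± 0.43 (SE; edgeR adjusted p = 0.0254), and -1.07 after the correction (edgeR adjusted p = 0.0451). The call of HIST1H4E was lost without control library 6 (edgeR adjusted p = 0.0562) or miR-122-5p library 1, 4 or 6 (edgeR adjusted p = 0.0626, 0.0540 and 0.0600).

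HIST1H4I (chr6:27138588-27139881, plus strand), the most abundant H4 gene, was at 10.9, 11.3 and 13.7 CPM with miR-122-5p and at 10.5, 14.5 and 18.2 CPM in controls. The groups overlapped, since control library 2 was the lowest of all. Its log2 fold change of -0.29 ± 0.12 (SE) was barely past the threshold (edgeR adjusted p = 0.0430) and was lost in 16 of 25 alternative settings, among them the GC and length correction (-0.21, edgeR adjusted p = 0.112). Leaving out a single library ended the call in 9 of 12 cases, all but control libraries 2 and 6 and miR-122-5p library 6, and the smallest decrease was found without control library 1 (-0.20, edgeR adjusted p = 0.131). HIST2H4B had 0.61 ± 0.70 and was uneven within both groups, from 0.0820 to 3.19 CPM with miR-122-5p and from 0.103 to 2.98 CPM in controls. It has a near-identical copy, HIST2H4A, which had a mean of 12.3 counts but did not pass the filter. Without control library 5, HIST2H4B was at 1.84 (edgeR adjusted p = 0.0293). With the counts of both copies summed, the pair was at 0.04 (edgeR adjusted p = 0.955), with 1.35 ± 1.3 CPM against 1.29 ± 1.09 CPM (SD, n = 6 each).

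A single H3 gene of 15 was tested. HIST1H3H (chr6:27810064-27811300, plus strand) was at 0.586, 0.848 and 1.37 CPM with miR-122-5p and at 1.22, 1.69 and 2.65 CPM in controls. The ranges overlapped slightly, and its log2 fold change was -0.92 ± 0.27 (SE; edgeR adjusted p = 0.00624), and also -0.92 after the GC and length correction. The one tested gene of 6 for the linker histone H1, HIST1H1C (chr6:26055787-26056428, minus strand), was at 11.7, 13.4 and 14.1 CPM with miR-122-5p and at 9.27, 10.2 and 13.3 CPM in controls. Its log2 fold change was 0.29 ± 0.10 (SE; edgeR adjusted p = 0.0232), and -0.01 after the correction (edgeR adjusted p = 0.961), but 0.38 with the GC slope as a covariate (edgeR adjusted p = 0.183). Without control library 4 HIST1H1C was at 0.26 (edgeR adjusted p = 0.0516).

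**Figure D3:**
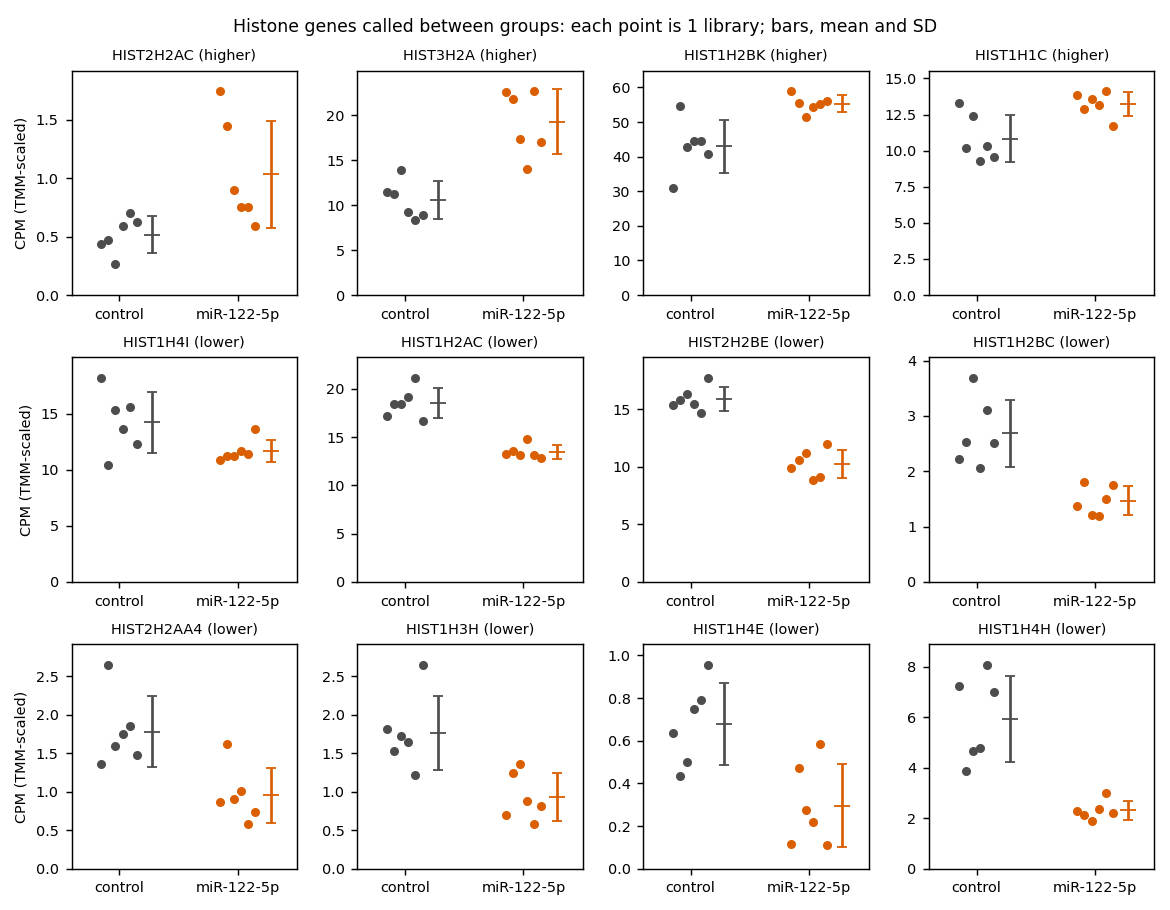
CPM scaled by library composition (y axis, from 0) of the 12 called histone genes in control and miR-122-5p libraries (x axis), with each point 1 library and bars for the mean and SD. HIST3H2A, HIST1H2AC, HIST2H2BE, HIST1H2BC and HIST1H4H have no overlap between groups.

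By transcript end, the 15 tested extended genes held 1 called higher (HIST3H2A) and 7 called lower, the 4 tested genes with the short end 0 and 1, and the 4 without a stem-loop in the annotation 3 and 0. All 3 of the last, HIST1H2BK, HIST1H1C and HIST2H2AC, are annotated to the stop codon only and have a transcript GC content from 57.5 to 62.8%. Transcript end and GC content therefore cannot be told apart in these genes. By cluster, HIST1 on chromosome 6 had 15 tested of 55 (2 higher, 6 lower), HIST2 on chromosome 1 had 6 of 12 (1 higher, 2 lower), HIST3 had 2 of 3 (1 higher) and HIST4 had 0 of 1.

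Summed over all 71 genes, the level was 152.1 ± 5.6 CPM with miR-122-5p and 149.4 ± 7 CPM in controls (SD, n = 6 each), and the library ranges overlapped. Without HIST1H2BK the sums were 96.8 ± 4.93 and 106.4 ± 4.69 CPM, so the sign of the small difference turned without this 1 gene. HIST3H2A, at 19.3 against 10.5 CPM, also differed by more than the whole sum did. The sign therefore does not rest on HIST1H2BK alone. H4 genes summed to 16 ± 1.89 against 22.7 ± 4.53 CPM and H3 genes to 1.197 ± 0.323 against 2.18 ± 0.507 CPM. The other classes had higher means with miR-122-5p. H1 genes summed to 13.4 ± 0.882 against 11.1 ± 1.67 CPM. H2A genes summed to 38.6 ± 3.66 against 35.2 ± 2.38 CPM and H2B genes to 83.0 ± 2.41 against 78.3 ± 9.47 CPM. In each of these classes 1 gene differed by at least as much as the class sum. These were HIST1H1C (13.2 against 10.8 CPM), HIST3H2A (19.3 against 10.5 CPM) and HIST1H2BK (55.25 against 43.04 CPM). After the GC and length correction HIST1H1C and HIST1H2BK had log2 fold changes of -0.01 and -0.08. The class means are therefore not rises of whole classes. The sums of called genes follow from the calls and are shown only as a description.

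**Figure D4:**
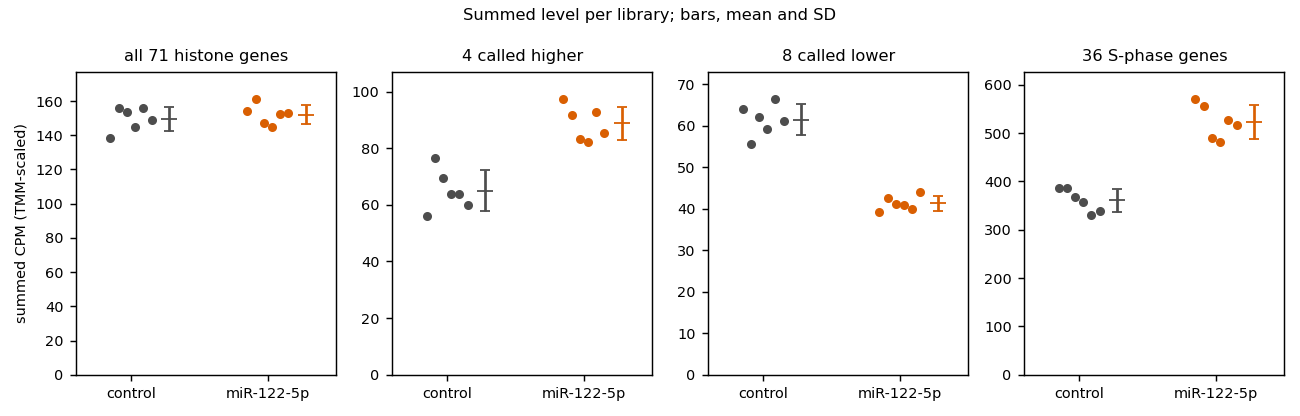
Summed CPM per library (y axis, from 0) for all 71 histone genes, the 4 called higher, the 8 called lower and 36 S-phase genes, in control and miR-122-5p libraries (x axis), with bars for the mean and SD. The sum of all histone genes overlaps between groups, and that of the S-phase genes does not (481.9 to 569.6 against 330.6 to 385.8 CPM).

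Among the histone genes, 12 pairs start within 1000 bases of each other on opposite strands, and both genes were tested in 5. HIST2H2BE and HIST2H2AC, 323 bases apart around the first upstream region printed above, had calls in opposite directions, that of HIST2H2AC being lost after the GC and length correction. Their log2 ratio of counts, HIST2H2BE over HIST2H2AC, was 3.42 ± 0.645 with miR-122-5p and 5.01 ± 0.529 in controls (SD, n = 6 each), a difference of -1.60 (two-sided exact permutation p = 0.00216, the smallest this design allows; 0.0108 adjusted over the 5 pairs). HIST1H2BC and HIST1H2AC, 219 bases apart, both fell, and their log2 ratio differed by -0.40 (exact permutation p = 0.0390, adjusted 0.0974). HIST3H2A and HIST3H2BB, 234 bases apart, differed by 0.15 in their ratio (exact permutation p = 0.803), so the called increase of HIST3H2A was not shown to differ from its neighbour's. The ratios of HIST1H2BG to HIST1H2AE and of HIST1H2BJ to HIST1H2AG gave adjusted exact permutation p of 0.216 and 0.235. HIST2H2AC shares 17.2% of its 100-base windows with HIST2H2AA3 and HIST2H2AA4, and is the gene of higher GC content in its pair.

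S-phase genes, the usual companions of histone expression, were called higher in 28 of 36 tested and lower in 3 (median log2 fold change 0.82), with 28 and 1 after the GC and length correction and 19 and 0 with the GC slope as a covariate. E2F1, the transcription factor that drives S-phase entry, had a log2 fold change of 2.02 ± 0.16 (SE; edgeR adjusted p = 1.52e-09). FEN1, the flap endonuclease, had 1.16 ± 0.10, and the replicative helicase subunits MCM7 and MCM4 had 1.12 ± 0.10 and 1.08 ± 0.11. The histone genes did not show this pattern, with 4 of 23 called higher. Of those 23, 15 were extended, and 47 of the 71 had a mean under 10 counts. With the RNA selection not given, the tested genes may not stand for the classical S-phase mRNAs. Whether the 2 sets differ was not tested.

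Factors that transcribe histone genes or form their mRNA ends were called higher in 2 of 25 and lower in 8 (median log2 fold change -0.06); scaled by library totals only, the counts were 4 and 4, and with the GC slope as a covariate 1 and 3. SLBP, which binds the stem-loop, had 47.3 ± 2.49 and 52.1 ± 4.10 CPM (SD, n = 6 each) and was not called (log2 fold change -0.14 ± 0.07, edgeR adjusted p = 0.103). Its call depended on the setting. Once corrected for GC content and length, SLBP was called lower at -0.15 (edgeR adjusted p = 0.0392). With the GC slope as a covariate SLBP was not called (edgeR adjusted p = 0.355). NPAT, the coactivator of histone gene transcription, had -0.31 ± 0.14 (edgeR adjusted p = 0.0747). CASP8AP2, a protein of the histone locus body, had -0.35 ± 0.12 (edgeR adjusted p = 0.0219), and 0.00 after the GC and length correction. ERI1, the exonuclease that trims and degrades histone mRNA ends, fell from 21.5 ± 2.25 to 11.8 ± 1.06 CPM (SD, n = 6 each), a log2 fold change of -0.86 ± 0.09 (SE; edgeR adjusted p = 1.38e-07), and was still called after the correction at -0.56. CPSF2, a subunit of the cleavage complex, had -0.45 ± 0.08, CDK2, the kinase that acts on NPAT, -0.35 ± 0.08, and NELFE, a subunit of the negative elongation factor, 0.36 ± 0.07; all 3 were called by edgeR. CPSF2 was not called after the correction (-0.12, edgeR adjusted p = 0.0834), and CDK2 and NELFE were not called with the GC slope as a covariate (edgeR adjusted p = 0.188 and 0.380).

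Histone chaperones and import factors were called higher in 7 and lower in 8 of 25 tested (median log2 fold change 0.02), and in 4 and 4 with the GC slope as a covariate. ASF1B, the H3-H4 chaperone of proliferating cells, had a log2 fold change of 1.12 ± 0.14, and TONSL, which binds newly made H4, had 1.05 ± 0.13. HIRA, the chaperone that deposits H3.3 outside replication, had -0.94 ± 0.10, and the importin KPNB1 -0.65 ± 0.07; all 4 were called by edgeR.

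Variant histone genes, which are expressed outside S phase and mostly polyadenylated, were called higher in 7 and lower in 1 of 11 tested (median log2 fold change 0.37), and in 4 and 2 with the GC slope as a covariate. H2AFJ had a log2 fold change of 1.38 ± 0.14, H2AFZ (H2A.Z) 0.29 ± 0.08 and H3F3A (an H3.3 gene) 0.37 ± 0.08. H3F3B, the other H3.3 gene, fell from 638.4 ± 58.1 to 414.9 ± 25.3 CPM (SD, n = 6 each), a log2 fold change of -0.62 ± 0.07 (SE; edgeR adjusted p = 1.72e-07), with no overlap. H1FX had 0.78 ± 0.14, which turned to -0.13 with that covariate (edgeR adjusted p = 0.445). H1F0, the linker histone of non-dividing cells, had -0.07 ± 0.09 and was not called, but was called lower with that covariate (edgeR adjusted p = 0.00957). H2AFX, which carries the stem-loop and can end in either way, had 0.54 ± 0.10 (edgeR adjusted p = 0.000145), and 0.00 after the GC and length correction (edgeR adjusted p = 0.964).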

How the data were processed

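RNA from 12 libraries was extracted with Trizol and prepared from 1 µg with an NEBNext Ultra kit, per the labels' protocols. The authors deposited a table of raw counts for each gene, not normalized. HISAT2 2.0.5, featureCounts 1.5.0-p3 and hg38 are named in the submitters' processing notes, without settings. Columns were assigned by their names and replicate numbers to the sample titles, and control columns carry only "nc" and a number. All 58735 identifiers were found in GENCODE 29, which gave symbols, positions, and the longest transcript's GC content and length.

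In R 4.3.3, edgeR 4.0.16 was run with filterByExpr, TMM factors and its quasi-likelihood test, adjusted by Benjamini-Hochberg over all tested genes at 0.05; the script was tested on simulated data. CPM values are scaled by TMM factors. The GC and length correction used per-library offsets from natural splines (4 degrees of freedom). Ratios of neighbouring genes were compared by an exact permutation test over libraries (scipy 1.17.1). Alternatives used DESeq2 1.42.0, limma 3.58.1 (voom), other filters, scalings and thresholds, a replicate block and each library left out. No 2 libraries of a group agreed within sampling noise (chi-square divided by its degrees of freedom, 8.36 to 80.2).

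Low counts were mostly even: 31.7% of counts from 1 to 10 over all genes were odd, against 49.7% from 100 to 500, so low counts may hold fewer independent molecules than reads, and intervals cover counting error only. Named were the 10 histone genes of highest CPM, up to 5 called with the largest change in each direction, 2 per class, and up to 4 genes per other list by p, with 9 fixed ones; other genes were chosen after their values were seen. The members and lists were chosen with earlier results of these data known.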

Additional observations from a re-analysis of the deposited data

Results flagged for a closer look

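In 11 of 92 groups of 6 libraries tested, 1 library stood apart from the other 5 by Dixon's criterion, which chance gives in about 1 in 20 groups. Of the 11, 7 were in control libraries 1 and 6. Among the histone genes, HIST2H4B reached 2.98 CPM in control library 5 and HIST3H2BB 2.70 CPM in control library 6. HIST1H2BH was highest in library 6 of both groups, at 0.788 CPM with miR-122-5p and 0.874 CPM in controls. HIST1H2AC was at 14.8 CPM in miR-122-5p library 4 and HIST1H4I at 13.7 CPM in miR-122-5p library 6, the highest of their group.

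Among related genes, control library 6 was highest for CDK2 (37.3 CPM) and NPAT (10.3 CPM). Control library 1 was highest for H2AFZ (116 CPM) and H3F3A (613 CPM) and lowest for H1F0 (134 CPM).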

How the results depend on the processing

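Settings were changed one at a time. Histone genes called higher numbered 4 as reported, 1 after the GC and length correction, 0 with the GC slope as a covariate, and 2 with a minimum fold of 1.2 or an adjusted p under 0.01 (edgeR). Those called lower numbered 8, and 3 with the covariate. With each library left out in turn they ranged from 3 to 5 higher and 6 to 8 lower. Over all genes, 3756 higher and 4054 lower became 1117 and 1887 with the covariate, 2264 and 2580 with the minimum fold, and 3446 to 3846 and 3727 to 4033 with a library left out.

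Among the named genes called either as reported or in the alternative, log2 fold changes turned sign for HIST1H2BK (-0.079 after the correction, -0.049 with the covariate), HIST1H1C (-0.008 after the correction), HIST1H4I (0.186 with the covariate) and H1FX (-0.134 with the covariate); the cause was not tested. Genes called in neither also turned, such as NPAT after the correction (0.032).

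Processing factors (2 higher, 8 lower) gave 4 higher with the 1 CPM filter, DESeq2, voom, the GC and length correction or library totals, 1 with the covariate or an adjusted p under 0.01, and 0 with the minimum fold. Lower, they numbered 3 with the covariate or the stricter p, 4 with library totals or no filter, and 2 with the minimum fold. They ranged from 1 to 3 and 5 to 8 with a library left out, reaching 1 higher without control library 4 or miR-122-5p library 1 or 4, and 5 lower without control library 6 or miR-122-5p library 2. Chaperones gave 4 and 4 with the covariate and 5 lower with the minimum fold. Variants gave 4 higher and 2 lower with the covariate and 4 higher with the minimum fold. S-phase genes gave 1 lower after the correction and 0 with the covariate, where 19 were higher in place of 28.

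The replicate block gave 3 histone genes higher and 9 lower. Same-numbered libraries did not deviate together (r from -0.105 to 0.066; 1 of 6 correlated best with its own number), so the numbers were not taken as pairs. Alternatives chosen after seeing the data gave 6 higher and 7 lower without control libraries 1 and 6, 4 and 8 with near-identical copies summed, and 4 and 9 with all counts halved. Of the 71 histone genes, 47 had a mean under 10 counts, and those that did not pass the filter were not compared.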
